A study of Mus musculus with 16 samples.

Results

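The lipoprotein and fatty acid uptake genes are 9 genes chosen by symbol, *Lpl*, *Gpihbp1*, *Lmf1*, *Vldlr*, *Lrp1*, *Cd36*, *Apoe*, *Apoc1* and *Apoh*, of the 55471 genes counted in skeletal muscle of 16 mice. All 9 were found and all 9 passed the filter on low counts, as did 14331 genes in all. The rule uses only their names, although the list was drawn up with earlier results of these data known. The mice were male littermates of the B6.129-Npr1tm1Gar/J line, backcrossed onto C57BL/6J, and 10 libraries are labelled heterozygous (*Npr1*+/-) and 6 wildtype (*Npr1*+/+). Both labels shared an age given as 12 weeks and a high-fat diet (HFD) of 12 weeks with 60% of kilocalories from lipid, and whether the age is that at the start of the diet is not stated. The allele is present in the whole body, so the groups do not isolate muscle, and the muscle sampled is not named. Mice came from 4 cages, each with both labels, and body weight was 43.6 ± 3.79 g (SD, n = 10) under the *Npr1*+/- label and 47.4 ± 4.69 g (SD, n = 6) under the *Npr1*+/+ label.

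Muscle takes up fatty acids from circulating triglyceride-rich lipoproteins. Lipoprotein lipase, the product of *Lpl*, is matured in the endoplasmic reticulum by LMF1 and carried to the capillary surface by GPIHBP1 of endothelial cells, where it hydrolyzes triglyceride. Apolipoproteins such as APOE and APOC1 modulate this step and remnant clearance, VLDLR and LRP1 bind particles, and CD36 helps fatty acids cross endothelial and muscle membranes. Liver is the main source of plasma apolipoproteins, and macrophages and adipocytes make APOE as well.

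Between 15273472 and 59682677 counts were assigned per library. Levels are TMM-normalized counts (CPM), in which every library is brought to the same effective total. *Npr1* mRNA, which the allele targets, was 13.6 ± 3.87 CPM (SD, n = 10) against 12.2 ± 1.05 CPM (SD, n = 6) and thus no lower under the *Npr1*+/- label, so directions given here compare libraries by their labels. Replicate 3 labelled *Npr1*+/+ had 30.4 CPM of *Rps3a3*, a gene at 0.111 to 0.704 CPM in the other 5 libraries of that label and at 22.8 to 61.5 CPM in the 10 libraries labelled *Npr1*+/-. Replicate 5 labelled *Npr1*+/- had the largest total. Without both, a choice made after the data were seen, no uptake gene passed the test for the label, and the 9 label differences kept their signs. All 12 markers of muscle fibers were tested, and their summed level was 107039 to 168839 CPM. Fewer cells of a type and less RNA per cell cannot be told apart in bulk tissue.

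The sequence upstream of the transcription start is shown for the 3 uptake genes with the highest levels per length, *Cd36*, *Vldlr* and *Apoe*, as the context of the most abundant mRNAs. Sequences are from RefSeq (GRCm38.p6), which held promoters for 6 of the 9 genes. Each run has 250 bases, 5′ to 3′ on the gene's strand, ending at the base before the start. Capitals mark matches on either strand to the TATA box TATAAA, the motif CCAAT of nuclear factor Y, the GC box GGGCGG, the nuclear receptor half-site AGGTCA or the sterol response element TCACNCCAC, and no match overlaps another in these runs. The *Cd36* start used lies 52851 bases inside the gene as tabulated, and those of *Vldlr* and *Apoe* are at the 5′ end of the gene as tabulated. They lie at chr5:17835897-17836146 on the minus strand, chr19:27216234-27216483 on the plus strand and chr7:19699189-19699438 on the minus strand.
Cd36: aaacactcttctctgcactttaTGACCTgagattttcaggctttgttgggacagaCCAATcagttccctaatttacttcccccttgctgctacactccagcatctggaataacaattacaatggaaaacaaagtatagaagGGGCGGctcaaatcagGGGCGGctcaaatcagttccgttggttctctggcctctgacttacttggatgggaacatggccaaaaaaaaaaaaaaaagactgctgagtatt
Vldlr: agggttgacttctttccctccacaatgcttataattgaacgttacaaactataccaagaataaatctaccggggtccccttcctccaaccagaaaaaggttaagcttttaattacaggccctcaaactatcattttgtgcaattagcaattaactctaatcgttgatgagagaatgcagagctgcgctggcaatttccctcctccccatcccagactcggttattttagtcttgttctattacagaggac
Apoe: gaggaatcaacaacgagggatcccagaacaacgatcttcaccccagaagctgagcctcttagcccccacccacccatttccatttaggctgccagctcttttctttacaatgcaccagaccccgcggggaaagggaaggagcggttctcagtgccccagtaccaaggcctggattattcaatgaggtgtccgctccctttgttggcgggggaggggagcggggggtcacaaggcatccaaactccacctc
The *Cd36* run held 1 match to CCAAT, 2 to the GC box and 1 to AGGTCA, and neither the *Vldlr* nor the *Apoe* run held any of the 5. Both genes have further starts in the table, not printed. The second *Vldlr* start, 536 bases downstream, had 1 match to CCAAT and 1 to the GC box in its window, and of 2 other *Apoe* starts the one 567 bases downstream had 2 overlapping matches to TATAAA and the other none. Of 32851 promoters of this length, 33.8% held CCAAT, 32.7% GGGCGG, 14% AGGTCA, 12.4% TATAAA and 1.05% TCACNCCAC. These are matches of letters only.

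*Cd36* and *Vldlr* stood at the top of the levels, whereas *Lrp1*, the other particle receptor, was sixth of the 9. To compare genes, CPM was divided by the gene length in kilobases. *Cd36* had 230 ± 47.9 CPM per kilobase (SD, n = 16), above *Vldlr* with 58.4 ± 12.9, *Apoe* with 49.6 ± 10.9, *Lpl* with 36.4 ± 4.75 and *Gpihbp1* with 27.2 ± 5.75. *Lrp1* followed with 2.29 ± 0.811 CPM per kilobase, then *Apoc1* with 1.37 ± 1.75, *Lmf1* with 1.19 ± 0.132 and *Apoh* with 0.702 ± 0.350 (SD, n = 16 each). The steps from *Cd36* to *Vldlr* and from *Gpihbp1* to *Lrp1* were larger than the spread and held in 16 of 16 libraries. *Vldlr* and *Apoe*, *Apoe* and *Lpl*, and *Lpl* and *Gpihbp1* were within 1 SD of each other, with the order held in 11, 13 and 14 libraries. *Lrp1* and *Apoc1* also lay within 1 SD of each other, with the order held in 13 libraries. *Apoc1* exceeded *Lmf1* in only 3 libraries although its mean was higher. The step from *Lmf1* to *Apoh* was just beyond 1 SD and held in 13 libraries. The length is that of all exons of a gene, so genes with long unused exons read low on this scale.

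**Figure D1:**
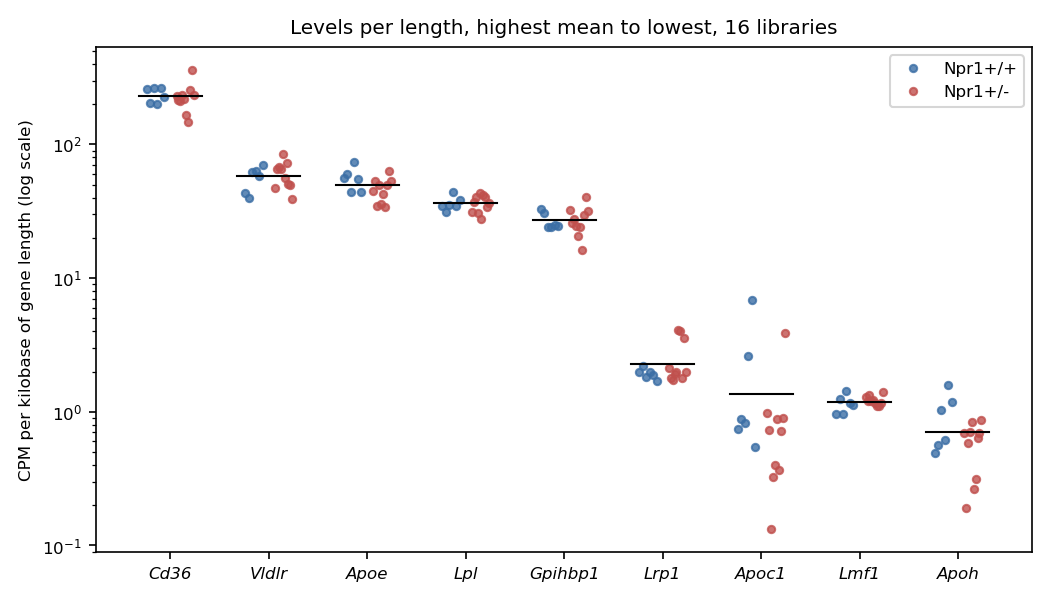
CPM per kilobase of gene length on a log axis, with 1 point per library (16 libraries, colored by label) and a black line at each gene's mean. *Cd36* lies above the other 8 genes in every library, and *Apoc1* has 3 libraries above its other 13.

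The first comparison asked whether mRNA of the uptake genes differs between the labels under HFD, in a fit with cage and body weight as covariates. None of the 9 genes passed (edgeR quasi-likelihood test, Benjamini-Hochberg adjusted p = 1.0 for each), and of all tested genes 0 passed (0%) while 151 had an unadjusted p under 0.05 (1.05%), a number that was 285 without replicate 7 labelled *Npr1*+/- and 232 without replicate 5 labelled *Npr1*+/+. DESeq2 called 6 genes for the label, none of them an uptake gene, with 172 at an unadjusted p under 0.05. The groups overlapped for all 9 genes, and 0.00698% of all tested genes had groups that did not. Of the 9, 6 had a log2 fold change (*Npr1*+/- minus *Npr1*+/+) below 0, against 51.6% of all tested genes, with a median of -0.043 beside -0.0060 over all tested genes.

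*Lpl* (ENSMUSG00000015568, GRCm38 chromosome 8, 68880491 to 68907448), the lipase itself, was at 290 to 450 CPM with a median of 384 in the libraries labelled *Npr1*+/- and at 329 to 459 CPM with a median of 368 in those labelled *Npr1*+/+. The groups lay over each other, and replicate 6 labelled *Npr1*+/- was lowest. The log2 fold change of *Lpl* was -0.14 (SE 0.14, 95% interval -0.44 to 0.16), and it was -0.071 without replicate 4 labelled *Npr1*+/+ and -0.078 without replicate 6 labelled *Npr1*+/-. *Gpihbp1* (ENSMUSG00000022579, chromosome 15, 75596628 to 75599481), which moves the lipase across the endothelium, had 41.1 to 104 CPM with a median of 68.5 under the *Npr1*+/- label and 61.9 to 83.8 with a median of 63.4 under the *Npr1*+/+ label. Its highest and lowest libraries, replicates 9 and 7, are both labelled *Npr1*+/-. The log2 fold change of *Gpihbp1* was 0.15 (SE 0.20, 95% interval -0.27 to 0.57). It ran from 0.046 without replicate 9 labelled *Npr1*+/- to 0.23 without replicate 4 labelled *Npr1*+/+, was 0.070 without replicate 5 of the latter label, and was -0.017 with cage only. *Lmf1* (ENSMUSG00000002279, chromosome 17, 25579085 to 25662826), the maturation factor, was the steadiest of the 9, with 15.1 to 19.0 CPM (median 16.4) against 13.1 to 19.5 (median 15.5). Its difference of -0.043 (SE 0.14) was well within the spread of the libraries and was 0.085 with the label alone and 0.050 with cage only.

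*Vldlr* (ENSMUSG00000024924, chromosome 19, 27216484 to 27249755), a receptor for triglyceride-rich particles, had 390 to 850 CPM with a median of 607 in the libraries labelled *Npr1*+/- and 399 to 710 with a median of 602 in those labelled *Npr1*+/+. The medians nearly coincided, and the log2 fold change was -0.033 (SE 0.18, 95% interval -0.42 to 0.36), or 0.092 with the label alone and 0.12 with cage only. Leaving out single libraries moved it from -0.11, without replicate 5 labelled *Npr1*+/-, to 0.11, without replicate 5 labelled *Npr1*+/+. *Lrp1* (ENSMUSG00000040249, chromosome 10, 127538161 to 127621148), a large endocytic receptor for remnants, had 30.7 to 72.8 CPM with a median of 35.4 against 30.0 to 39.1 with a median of 34.2. Replicates 6, 7 and 9 labelled *Npr1*+/- stood at 72.8, 70.8 and 62.9 CPM, and the other 13 libraries of both labels lay between 30.0 and 39.1. The mean of *Lrp1* under the *Npr1*+/- label, 44.3 ± 17.2 CPM (SD, n = 10), thus rested on 3 libraries, and its log2 fold change was 0.27 (SE 0.26), or 0.058 without replicate 6. Endothelial markers were highest in replicates 7 and 6 of that label, with summed levels of 828 and 785 CPM beside 569 CPM in the next library, and fibroblast and mural markers were highest in replicate 9, with 1921 and 1369 CPM. Across the 16 libraries *Lrp1* had r = 0.678 with endothelial markers (adjusted permutation p = 0.0539, rho = 0.259, adjusted p = 0.575), which did not pass. This r was -0.070 without replicates 6 and 7. With fibroblast and mural markers r was -0.028 and 0.057, and 0.590 and 0.671 without the same libraries. These p-values are adjusted over the 108 relations described further on. Beyond these relations, the part of these cells in the level of *Lrp1* was not tested.

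*Cd36* (ENSMUSG00000002944, chromosome 5, 17781690 to 17888747), the fatty acid translocase, had 524 to 1294 CPM with a median of 806 in the libraries labelled *Npr1*+/- and 719 to 954 with a median of 869 in those labelled *Npr1*+/+. As for *Gpihbp1*, replicates 9 and 7 labelled *Npr1*+/- were the extremes. The log2 fold change was 0.091 (SE 0.19, 95% interval -0.30 to 0.49), and it was -0.014 without replicate 9. The sign also depended on the covariates, since *Cd36* was at -0.058 with the label alone and at -0.11 with cage only.

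**Figure D2:**
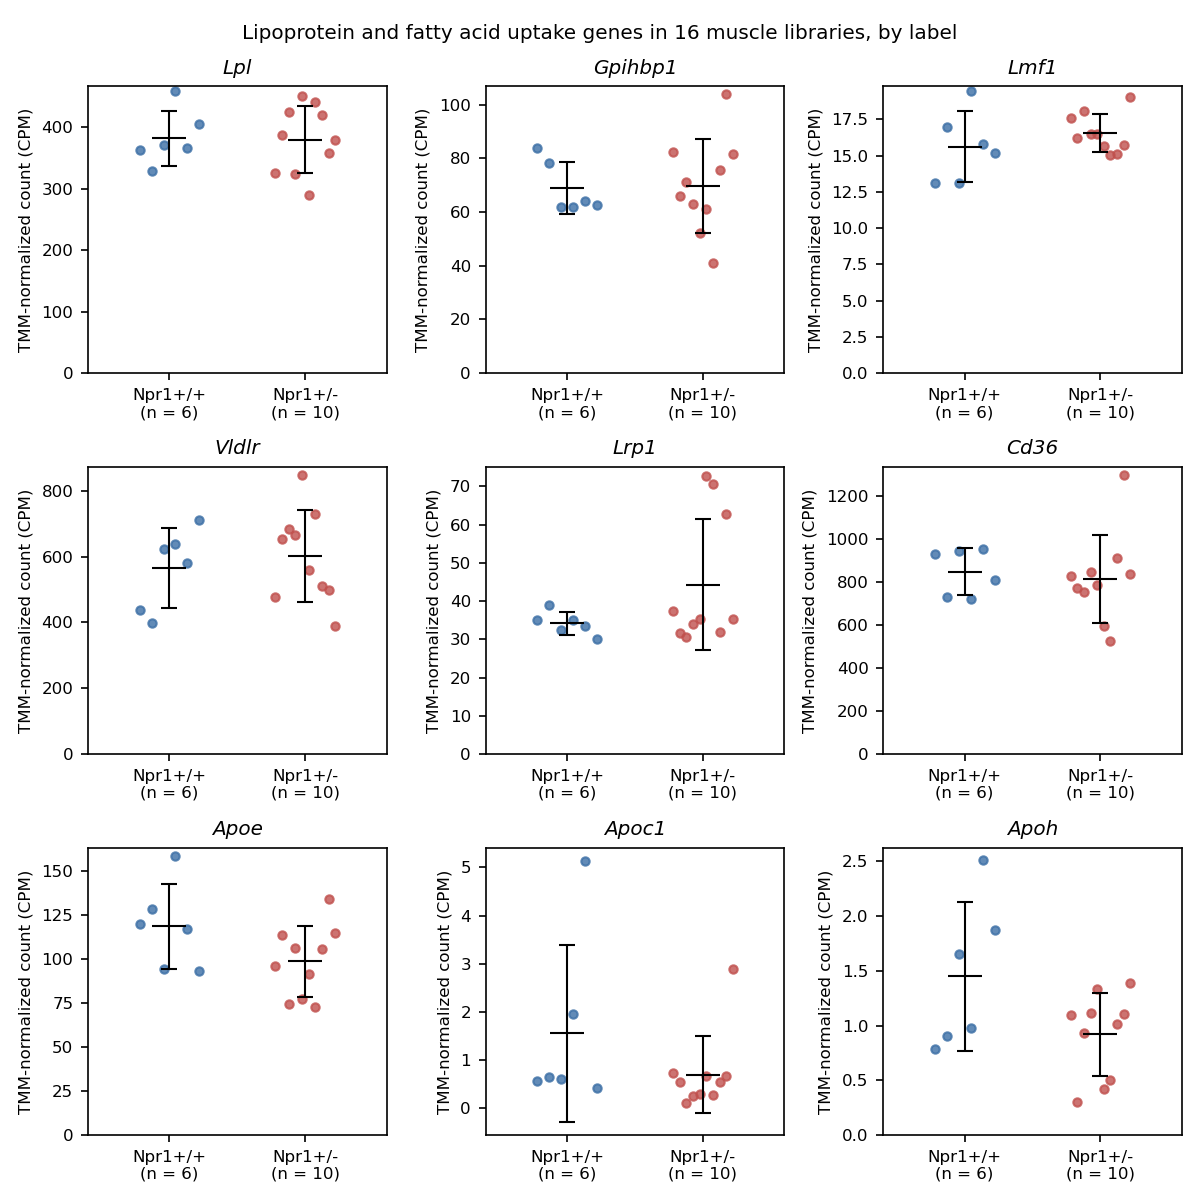
TMM-normalized counts (CPM, linear axes) of the 9 uptake genes, with 1 point per library and the mean and SD of each label in black (n = 6 labelled *Npr1*+/+, n = 10 labelled *Npr1*+/-). The groups overlap in every panel, *Lrp1* has 3 high libraries labelled *Npr1*+/-, and 1 library labelled *Npr1*+/+ stands at 5.13 CPM of *Apoc1*.

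The 3 apolipoprotein genes had the largest differences toward lower levels under the *Npr1*+/- label. *Apoe* (ENSMUSG00000002985, chromosome 7, 19696109 to 19699188), the ligand of remnant receptors, had 72.8 to 134 CPM with a median of 101 against 93.5 to 159 with a median of 118. Of the 10 libraries labelled *Npr1*+/-, 9 were below the *Npr1*+/+ median. The log2 fold change of *Apoe* was -0.30 (SE 0.16, 95% interval -0.63 to 0.032, unadjusted p = 0.0733 in edgeR). It was -0.057 without replicate 4 labelled *Npr1*+/+, the library with the most *Apoe*.

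*Apoc1* (ENSMUSG00000040564, chromosome 7, 19689481 to 19692660), an inhibitor of lipoprotein clearance whose gene neighbors *Apoe*, was scarce, with 2 to 139 counts per library. It had 0.098 to 2.90 CPM with a median of 0.541 in the libraries labelled *Npr1*+/- and 0.407 to 5.13 with a median of 0.632 in those labelled *Npr1*+/+. Replicates 5 and 4 labelled *Npr1*+/+, at 5.13 and 1.95 CPM, and replicate 10 labelled *Npr1*+/-, at 2.90 CPM, were above all the others, which reached at most 0.731 CPM. The log2 fold change of *Apoc1*, -1.43 (SE 0.46, 95% interval -2.41 to -0.45), had an unadjusted p of 0.00662 in edgeR, and the adjusted p was 1.0. *Apoc1* was the 1 uptake gene of 9 under an unadjusted p of 0.05, beside 1.05% of all tested genes. *Apoh* (ENSMUSG00000000049, chromosome 11, 108343354 to 108414396), a phospholipid-binding plasma protein made in liver, had 5 to 81 counts per library. Its level was 0.303 to 1.39 CPM with a median of 1.05 against 0.784 to 2.51 with a median of 1.31, highest in replicate 5 labelled *Npr1*+/+, and the log2 fold change was -0.60 (SE 0.39, 95% interval -1.42 to 0.22). *Apoh* overlaps *Prkca* on the other strand, with 22245 counts of *Prkca* beside 441 of *Apoh* over the 16 libraries. The exons of the 2 genes share 30 bases and the use of strand in the counting is not stated, so the level of *Apoh* is uncertain.

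Replicate 5 labelled *Npr1*+/+ held mRNAs of liver that were at or near 0 in the other libraries. Hepatocyte markers summed to 84.7 CPM there, to 16.2 CPM in replicate 10 labelled *Npr1*+/- and 8.14 CPM in replicate 4 labelled *Npr1*+/+, and to 1.37 CPM in the lowest library. Of the 10 hepatocyte markers 9 were highest in replicate 5, among them albumin (*Alb*) at 57.6 CPM beside at most 1.197 CPM elsewhere. *Ttr*, *Fga*, *Fgb* and *Fgg* had 0 counts in the other 15 libraries. Of 12 listed apolipoprotein and lipid transfer genes other than the uptake genes, 7 were highest there. Among them *Apoa1* had 149 counts in replicate 5 and 0 in all others, and *Apob* had 131 counts beside 8 over the other 15. *Apoc3*, of the lipase list, had 27 counts beside 1. *Apoe* was at 117 CPM in replicate 5 and was not highest there. The liver fatty acid binding protein *Fabp1* had 157 counts in replicate 5 and 0 in all others. In replicate 10 labelled *Npr1*+/- and replicate 4 labelled *Npr1*+/+ most of the hepatocyte sum was *Cyp2e1*, at 15.05 and 7.17 CPM, and *Ttr*, *Fga*, *Fgb* and *Fgg* were at 0.

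These same 2 libraries had the highest adipocyte sums, 467 and 382 CPM beside 225 CPM in the next library, with adiponectin (*Adipoq*) at 147 and 85.0 CPM. Leaving out all 3 libraries, a choice made after the data were seen, the log2 fold change of *Apoc1* was 0.20 (SE 0.78) instead of -1.43, that of *Apoe* was 7.88e-05 (SE 0.28) instead of -0.30, and that of *Apoh* was -0.27 (SE 0.78). With them left out 2 of the 9 genes were below 0. Without these libraries 2 of the 4 cages held 1 label only. Without replicate 5 labelled *Npr1*+/+ alone, *Apoh* was at -0.33, and without replicate 4 alone *Apoc1* was at -0.96. Single libraries also moved such differences the other way. *Apoc1* was at -1.77 without replicate 10 labelled *Npr1*+/- alone, and *Apoe* was at -0.36 without replicate 5 labelled *Npr1*+/+ alone. Macrophage markers, whose cells also make APOE, summed to 61.6 to 247 CPM, with medians of 130 and 133 CPM under the *Npr1*+/- and *Npr1*+/+ labels. Across the 16 libraries they moved with *Apoe* (r = 0.732, adjusted permutation p = 0.0179, rho = 0.694, adjusted p = 0.0610), with r of 0.708 without replicate 7 labelled *Npr1*+/- and replicate 4 labelled *Npr1*+/+ and of 0.608 without the 2 libraries farthest in the macrophage sum. The relation of *Apoe* with adipocyte markers did not pass (r = 0.630, adjusted permutation p = 0.0539, rho = 0.606, adjusted p = 0.0869). These p-values are adjusted over the 108 relations described further on. The part of macrophages in the level of *Apoe* was not tested.

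**Figure D3:**
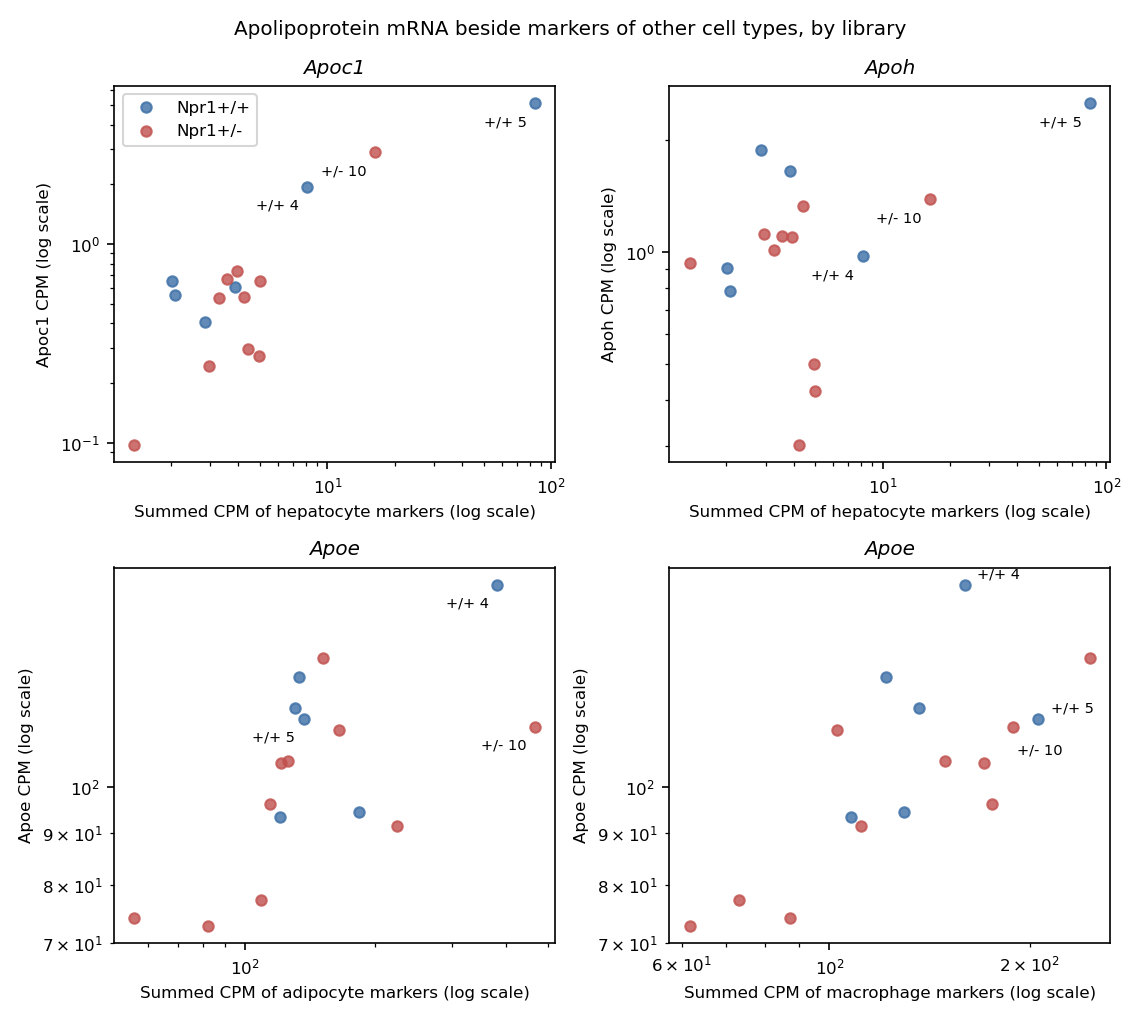
*Apoc1* and *Apoh* against the summed CPM of hepatocyte markers and *Apoe* against those of adipocyte and macrophage markers, all on log axes, with 1 point per library and the 3 libraries high in hepatocyte or adipocyte markers named by label and replicate. Replicate 5 labelled *Npr1*+/+ is highest for *Apoc1* and *Apoh* with a hepatocyte sum of 84.7 CPM, and replicate 4 of that label is highest for *Apoe* with an adipocyte sum of 382 CPM, and *Apoe* rises along the macrophage sum with r = 0.732.

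Nor did other genes of the pathway pass for the label. Of 60 listed genes 59 were found and 34 were tested, and 0 passed in edgeR. The tested genes were 16 higher and 18 lower under the *Npr1*+/- label, with a median log2 fold change of -0.018. Among genes that handle the lipase, 2 of 4 were lower, and the largest differences were those of the matrix proteoglycan *Hspg2* (0.35, SE 0.35) and the lipase folding adaptor *Sel1l* (0.21, SE 0.32). *Angptl4*, an inhibitor of the lipase, was at 25.9 ± 17.2 CPM (SD, n = 10) against 30.4 ± 6.54 CPM (SD, n = 6), with -0.13 (SE 0.36).

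Among 12 receptor genes 5 were lower. *Lrp11* had the 1 unadjusted p under 0.05 among the 34 tested genes of the 4 lists, beside 1.05% of all tested genes. Its level was 2.14 ± 0.435 CPM (SD, n = 10) under the *Npr1*+/- label and 2.77 ± 0.662 CPM (SD, n = 6) under the *Npr1*+/+ label, with a difference of -0.60 on the log2 scale (SE 0.22, unadjusted p = 0.0129, adjusted p = 1.0 in edgeR). *Lrp4*, known from the neuromuscular junction, was at 0.48 (SE 0.32). Of 5 other apolipoprotein and lipid transfer genes 3 were lower, with *Clu* at -0.19 (SE 0.19) and *Apobr* at 0.10 (SE 0.23) the farthest from 0. Of 13 fatty acid transport genes 8 were lower, with the caveolar genes *Cav2* at 0.19 (SE 0.23) and *Cavin1* at -0.13 (SE 0.13) the farthest. The muscle fatty acid binding protein *Fabp3* was at 709 ± 238 CPM (SD, n = 10) against 819 ± 144 CPM (SD, n = 6), without adjustment. In the fit with cage and body weight its log2 difference was 0.00051 (SE 0.23).

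**Figure D4:**
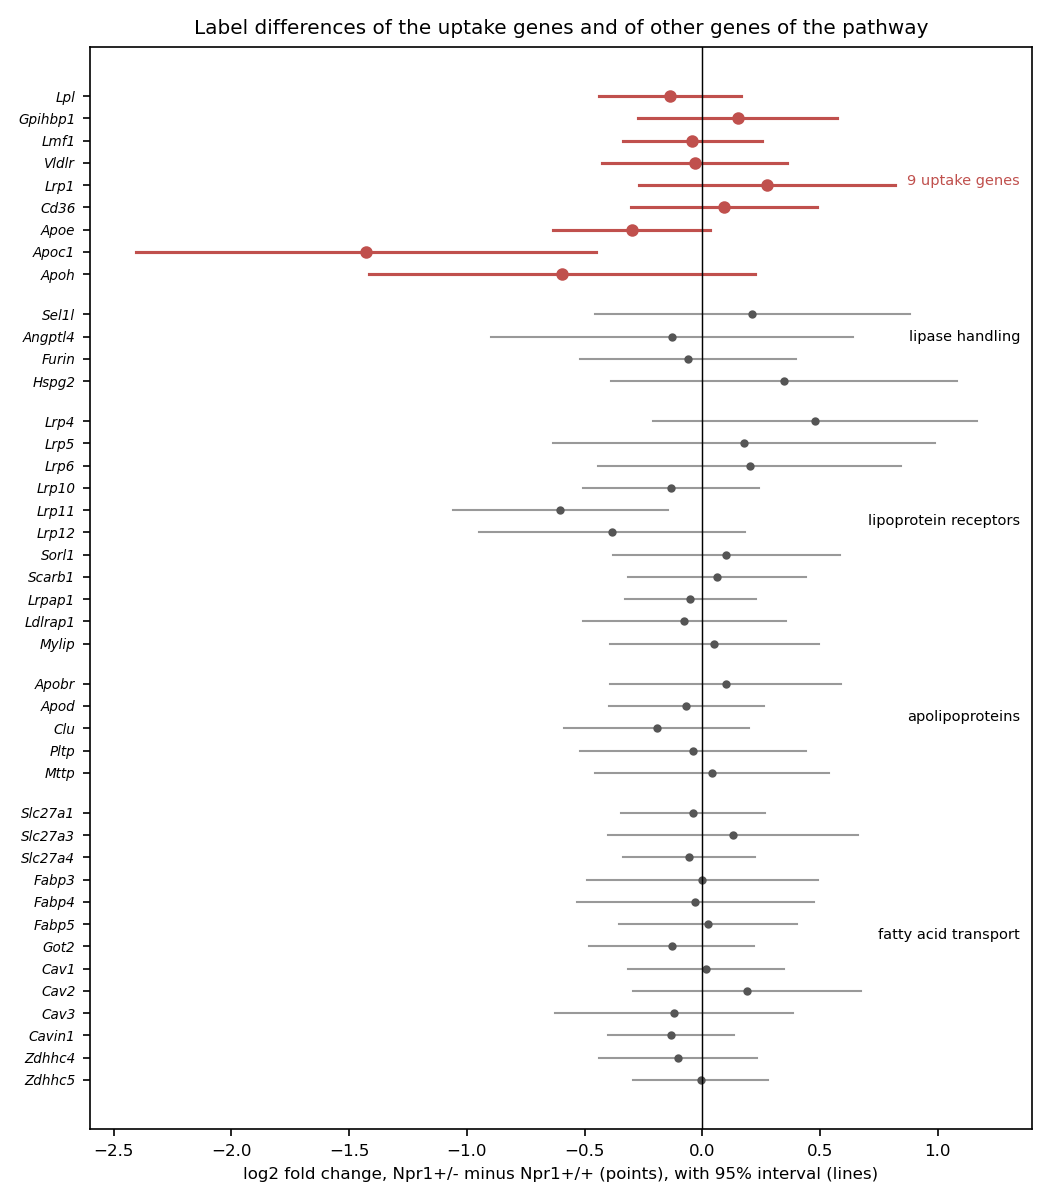
Log2 fold change between the labels (*Npr1*+/- minus *Npr1*+/+) with its 95% interval from edgeR, for the 9 uptake genes in red and 33 of the 34 tested genes of 4 pathway lists in grey. *Apoc1* at -1.43 and *Lrp11* at -0.60 are the genes drawn whose unadjusted interval leaves out 0.

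Body weight spanned 36.5 to 54.0 g, and its slope in the same fit was given per gene as the log2 change per g. None of the 9 uptake genes passed, beside 0 of all tested genes (0%) in edgeR with 2449 at an unadjusted p under 0.05 (17.1%), and beside 0 genes in DESeq2 with 2820. The number at an unadjusted p under 0.05 rested on single libraries, with 981 genes without replicate 7, 5376 without replicate 3, both labelled *Npr1*+/-, and 1507 without replicate 1 labelled *Npr1*+/+. *Cd36* had the largest slope of the 9, 0.049 per g (SE 0.024, adjusted p = 0.306 in edgeR), followed by *Gpihbp1* with 0.044 (SE 0.026) and *Apoe* with 0.031 (SE 0.022). *Vldlr* had -0.039 (SE 0.024) and *Lpl* -0.032 (SE 0.018), and 4 of 9 slopes were below 0, against 52.7% of all tested genes. Single libraries moved these slopes too. That of *Gpihbp1* was 0.024 without replicate 7 and 0.072 without replicate 3, both labelled *Npr1*+/-. *Apoe* had 0.013 without the same replicate 7 and 0.057 without replicate 3 labelled *Npr1*+/+. *Vldlr* had -0.062 without that replicate 3 and -0.023 without replicate 1, also labelled *Npr1*+/+. Without replicate 3 labelled *Npr1*+/-, 3158 genes passed, and *Cd36* was the 1 uptake gene among them, with 0.079 per g (adjusted p = 0.0417 in edgeR).

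Of the pathway genes 13 of 34 had an unadjusted p under 0.05 for body weight and 0 an adjusted one. The 4 with slopes above 0 were the fatty acid binding proteins *Fabp3* (0.067 per g), *Fabp4* (0.067) and *Fabp5* (0.063) and *Cav2* (0.072), beside 4.74% of all tested genes. In the same fit 11 of 12 macrophage markers (median slope 0.058 per g, 5 at an unadjusted p under 0.05, among them *C1qa* with 0.092 and *Lyz2* with 0.088) and 6 of 9 adipocyte markers (median 0.048, 0 under 0.05, with *Adipoq* at 0.13 and *Lep* at 0.15) had slopes above 0. So did 8 of 10 fibroblast markers (3 at an unadjusted p under 0.05) and 5 of 5 erythroid markers (median 0.086, 2 under 0.05). The part of these cells in the slopes of the fatty acid binding proteins was not tested. The 9 of 34 with slopes below 0, beside 12.3% of all tested genes, included the sorting receptor *Sorl1* (-0.10 per g, SE 0.029) and *Sel1l* (-0.12, SE 0.042). All 12 tested receptor genes had slopes below 0, as did *Vldlr* and *Lrp1*, so 14 of 14 in the fit with cage, 13 of 14 under RLE scaling, library size scaling or DESeq2 and 12 of 14 with gene length corrected. Blocking on replicate number rather than cage left 9 of 14. That number marks no stated pairing of mice, and replicates 7 to 10 exist under the *Npr1*+/- label only, so they add nothing to this slope. Of all tested genes 52.7% had slopes below 0. Endothelial markers had 10 of 12 slopes below 0, with a median of -0.061 per g, 5 of 12 at an unadjusted p under 0.05 and 0 at an adjusted one, among them *Flt1* (-0.14) and *Kdr* (-0.13). Muscle fiber markers had 9 of 12 below 0 and mural markers 5 of 8, with 3 and 2 at an unadjusted p under 0.05. The part of these cells in the receptor slopes was not tested.

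Cage was tested over its 3 coefficients. None of the uptake genes passed in edgeR, beside 4 of all tested genes (0.0279%), and 1 of the 9, *Apoc1*, had an unadjusted p under 0.05, as did 7.36% of all genes. *Apoc1* was at 2.32 ± 2.16 CPM (SD, n = 4) in cage 676 and at 0.505 ± 0.272 (SD, n = 4), 0.419 ± 0.130 (SD, n = 3) and 0.737 ± 0.702 (SD, n = 5) in cages 675, 677 and 678. Its F was 8.96 (adjusted p = 0.409 in edgeR). Cage 676 held replicate 5 labelled *Npr1*+/+ and replicate 10 labelled *Npr1*+/-, the highest 2 libraries. DESeq2 called *Apoc1* for cage (adjusted p = 0.0155), as did edgeR without replicate 3 labelled *Npr1*+/- (adjusted p = 0.0265, 869 genes called), and without the 3 libraries named above the adjusted p was 0.992.

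How the uptake genes varied together across the 16 mice was examined by 108 relations, 36 between 2 uptake genes and 72 between an uptake gene and the summed level of a marker list, with permutation p-values adjusted over all 108. Of these 15 passed on Pearson's r, 2 of them between uptake genes, but only 4 passed on Spearman's rho, 1 of them between uptake genes. The 4 were *Gpihbp1* with *Vldlr*, *Cd36* with fibroblast markers, *Vldlr* with erythroid markers and *Apoc1* with macrophage markers, and all 4 also passed on r. On the residuals of label, cage and body weight, r of these 4 was -0.672, 0.749, -0.464 and 0.274 in the same order. *Gpihbp1* and *Vldlr* moved in opposite directions (r = -0.755, adjusted p = 0.0133, rho = -0.756, adjusted p = 0.0486, n = 16), and r was -0.872 without the 2 libraries farthest from the *Gpihbp1* median, -0.747 within the 10 libraries labelled *Npr1*+/- and -0.927 within the 6 labelled *Npr1*+/+. The relation did not pass once the trend of counts with gene length, described further on, was removed (r = -0.278, adjusted permutation p = 0.531). *Gpihbp1* and *Cd36* had r = 0.726 (adjusted p = 0.0250, rho = 0.506, adjusted p = 0.163, n = 16), which rested on replicates 7 and 9 labelled *Npr1*+/- and was 0.258 without them. It was 0.845 within the *Npr1*+/- label and 0.014 within the *Npr1*+/+ label. Many other genes had an r with *Gpihbp1* at least as large in size, 15.6% of those tested for *Vldlr* and 20.5% for *Cd36*. *Apoe* with *Apoc1* (r = 0.622, adjusted p = 0.0539), *Gpihbp1* with *Apoe* (0.563, adjusted p = 0.109) and *Vldlr* with *Apoe* (-0.546, adjusted p = 0.134) came next by permutation test and did not pass.

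The largest r with a marker list was that of *Apoc1* with hepatocyte markers (r = 0.859, adjusted p = 0.00432, rho = 0.582, adjusted p = 0.0941, n = 16), which was 0.612 without replicate 5 labelled *Npr1*+/+ and replicate 10 labelled *Npr1*+/-. *Gpihbp1* followed erythroid markers (0.855, adjusted p = 0.00432, rho = 0.632, adjusted p = 0.0803) and macrophage markers (0.752, adjusted p = 0.0133, rho = 0.621, adjusted p = 0.0803), with r of 0.654 and 0.489 without replicates 7 and 9 labelled *Npr1*+/-. Within the *Npr1*+/- label these 2 relations had r of 0.947 and 0.899, and within the *Npr1*+/+ label 0.112 and -0.201. *Cd36* followed mural markers (0.755, adjusted p = 0.0205, rho = 0.621, adjusted p = 0.0803) and fibroblast markers (0.754, adjusted p = 0.0133, rho = 0.738, adjusted p = 0.0486), with r of 0.725 and 0.543 without the same libraries and of 0.527 and 0.641 without the 2 farthest in the marker sum. *Gpihbp1* and *Cd36* also moved with the gene length trend of the libraries, described further on (r = -0.838 and -0.755), so their marker relations are not free of that trend. An r at least as large in size with the same uptake gene was found for 18.5% and 18.6% of tested genes for *Cd36* at the mural and fibroblast values, for 2.37% and 16% for *Gpihbp1* at the erythroid and macrophage values, and for 0.00698% for *Apoc1* at the hepatocyte value. The others that passed on r were *Cd36* with endothelial (-0.746, adjusted p = 0.0133, rho = -0.665, adjusted p = 0.0649) and macrophage markers (0.733, adjusted p = 0.0179, rho = 0.682, adjusted p = 0.0610), *Vldlr* with erythroid markers (-0.700, adjusted p = 0.0244, rho = -0.782, adjusted p = 0.0486), *Lmf1* with muscle fiber markers (0.693, adjusted p = 0.0250, rho = 0.618, adjusted p = 0.0803) and *Apoh* with endothelial markers (-0.691, adjusted p = 0.0303, rho = -0.641, adjusted p = 0.0803). Besides *Apoe* with macrophage markers, *Apoc1* also passed with adipocyte (0.703, adjusted p = 0.0303, rho = 0.709, adjusted p = 0.0610) and macrophage markers (0.648, adjusted p = 0.0472, rho = 0.729, adjusted p = 0.0486). Without the 2 libraries farthest from the median of the uptake gene, r of these 7 was, in the same order, -0.779, 0.449, -0.668, 0.510, -0.752, 0.884 and 0.561. Without the 2 farthest from the median of the marker sum it was -0.368, 0.449, -0.736, 0.596, -0.520, 0.508 and 0.734. On the residuals *Lmf1* with muscle fiber markers had r = 0.448. With endothelial markers, the cells that carry GPIHBP1, *Gpihbp1* had r = -0.599 (adjusted p = 0.0756, rho = -0.459, adjusted p = 0.233). The sign turned between the labels, with r of -0.763 within *Npr1*+/- and 0.750 within *Npr1*+/+, and r was -0.286 without the 2 libraries farthest from the median endothelial sum.

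The libraries differed in how counts depended on gene length. The slope of each library's log2 deviations on log2 gene length ran from -0.193 per doubling of length in replicate 9 to 0.318 in replicate 7, both labelled *Npr1*+/-. Over 9 relations adjusted together, *Gpihbp1* (2554 bases) had r = -0.838 with this slope (adjusted permutation p = 9e-05, rho = -0.809, adjusted p = 0.00225), *Cd36* (3590 bases) -0.755 (adjusted p = 0.00333, rho = -0.594, adjusted p = 0.0402), *Apoe* (2138 bases) -0.725 (adjusted p = 0.0039, rho = -0.774, adjusted p = 0.00239) and *Vldlr* (10068 bases) 0.622 (adjusted p = 0.0212, rho = 0.691, adjusted p = 0.0117). Without replicates 7 and 6 labelled *Npr1*+/-, r was -0.783, -0.460, -0.664 and 0.737. With the length trend removed, r between *Gpihbp1* and *Cd36* was 0.667 (adjusted permutation p = 0.0621), and that between *Gpihbp1* and *Vldlr* did not pass either, as given above.

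**Figure D5:**
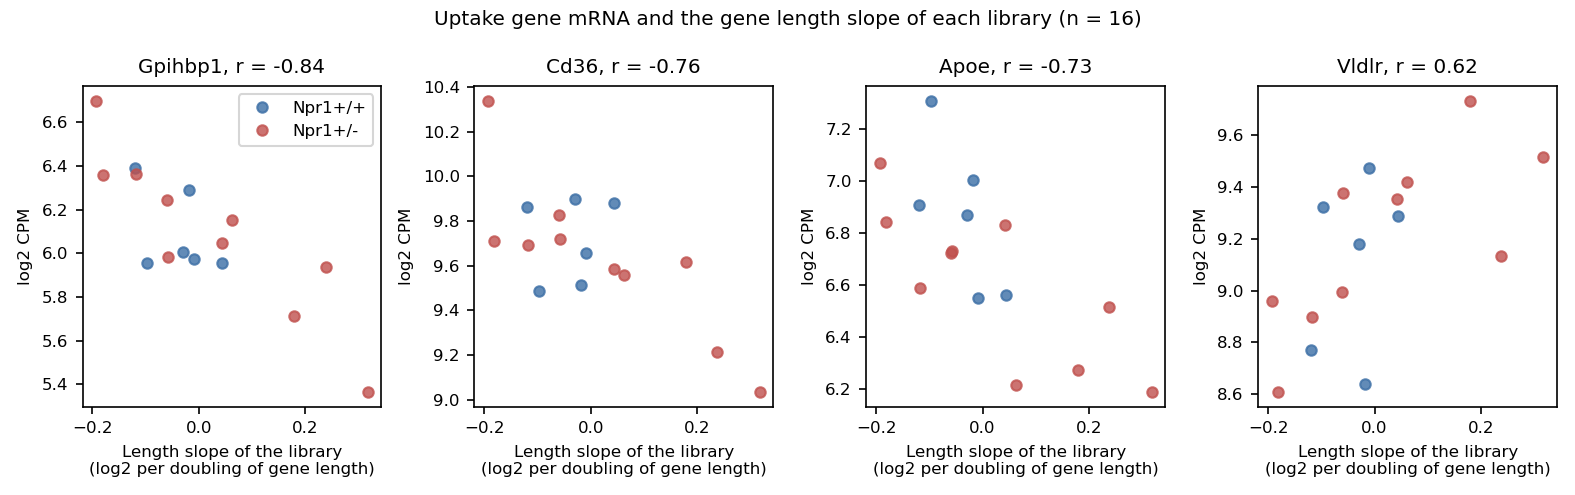
Log2 CPM of *Gpihbp1*, *Cd36*, *Apoe* and *Vldlr* against the slope of each library's counts on gene length (log2 per doubling of length), with 1 point per library, colored by label. *Gpihbp1* falls along the slope with r = -0.84 and *Vldlr* rises with r = 0.62.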

How the data were processed

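Skeletal muscle RNA of 16 mice was sequenced as paired ends. The authors mapped reads to GRCm38 with STAR 2.7.2b and counted fragments with both ends aligned on GENCODE M24 genes with featureCounts, and deposited raw counts per gene, without normalization, beside gene lengths. The sample notes give featureCounts 1.6.4, and kit names differ between the labels and the methods.

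Symbols were paired through GENCODE M21, for 55144 of 55471 genes. In R 4.3.3, edgeR 4.0.16 served for the filter (filterByExpr), the scaling (TMM) and the test (glmQLFit with robust = TRUE and legacy = TRUE, glmQLFTest) on label, cage and body weight, the covariates of the study, with Benjamini-Hochberg adjustment over 14331 genes at 0.05. Log2 CPM used a prior count of 2. Correlations used 100000 permutations (two-sided, smallest p 1e-05, SciPy 1.17.1). P-values measure the spread between mice. Totals of 15273472 to 59682677 counts set the precision and cover counting error only. Intervals are at 95%.

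The uptake genes and all lists were chosen with earlier results of these data known. Named genes are the 9 uptake genes, pathway genes under an unadjusted p of 0.05 for the label or with the 2 largest fold changes per list, the 3 genes most like each uptake gene in pattern, and the 5 largest correlations of each kind. A few genes within the rule were left out of the text and of a figure. *Fabp3*, *Angptl4*, body weight genes, single marker genes and the endothelial relation were named after their values were seen. Marker lists were muscle fiber, endothelial, adipocyte, macrophage, hepatocyte, fibroblast, mural and erythroid. Alternatives were other covariates, a replicate block, a length correction, other scalings and filters, DESeq2 1.42.0, legacy = FALSE and leaving out libraries. The steps were tested on simulated data. Same-numbered libraries of the 2 labels are different mice.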

Additional observations from a re-analysis of the deposited data

How the results depend on the processing

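Of 124 alternative values for the label in the uptake genes 106 kept their direction and side of the threshold, of 106 for body weight 98 did, and of 88 for cage 87. No uptake gene passed for the label under any alternative run, so the changes of sign given here are of values that had not passed. The cause of these changes was not tested. With the label alone, *Lmf1* was at 0.085, *Vldlr* at 0.092 and *Cd36* at -0.058. With cage as the only covariate, *Gpihbp1* was at -0.017, *Lmf1* at 0.050, *Vldlr* at 0.12 and *Cd36* at -0.11, and with body weight as the only one *Lmf1* was at 0.045. Without the 3 libraries high in hepatocyte or adipocyte markers, *Lmf1* was at 0.076, *Vldlr* at 0.25, *Apoe* at 7.88e-05 and *Apoc1* at 0.20, and 2 of the 9 were below 0. The length correction gave body weight slopes of 0.0089 for *Lmf1*, 0.043 for *Lrp1*, -0.029 for *Apoc1* and -0.011 for *Apoh*, and *Apoh* had -0.013 without replicate 3 labelled *Npr1*+/+ and replicate 5 labelled *Npr1*+/-.

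The labels state no pairing of same-numbered libraries of the 2 labels. Their deviations had a mean r of 0.078 over 6 pairs, 1 of them over 0.1. Pairs with different numbers had a mean r of -0.0082 over 54 pairs, 17 of them over 0.1. These values cannot show whether a pairing exists. With the replicate block in place of cage, the label differences were -0.066 for *Gpihbp1*, 0.012 for *Lmf1*, 0.089 for *Vldlr* and -0.097 for *Cd36*, the slopes were -0.000684 for *Gpihbp1* and 0.038 for *Lrp1*, 2 genes in all passed for the label and 1 for body weight, and 9 receptor genes had slopes below 0. With the block and the length correction, *Gpihbp1* was at -0.0035 and *Cd36* at -0.099, the slope of *Lrp1* was 0.040, 4 and 3 genes passed, and again 9 receptor genes had slopes below 0.

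Over all genes, 6 passed for the label in DESeq2, 8 with no filter on low counts and 1 without the pair of replicates 3 and 5. For cage, where 4 passed, the number was 9 with the length correction, 0 by library size, 23 with no filter, 1 with at least 10 counts in every library, 78 in DESeq2, 0 without the same pair and 1 without the 3 libraries, and in DESeq2 1 uptake gene passed, *Apoc1* (adjusted p = 0.0155).

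Leaving out each library in turn gave 0 to 3 genes for the label, 0 to 3158 for body weight and 0 to 869 for cage, with the highest of the latter 2 without replicate 3 labelled *Npr1*+/-. The label differences ran from -0.099 to 0.097 for *Lmf1*, -0.11 to 0.11 for *Vldlr* and -0.014 to 0.18 for *Cd36*. Slopes ran from -0.058 to 0.018 for *Lrp1*, 0.032 to 0.079 for *Cd36*, -0.043 to 0.057 for *Apoc1* and -0.029 to 0.042 for *Apoh*. The adjusted p of *Apoc1* for cage ran from 0.0265 to 0.806, with 0 to 1 uptake genes passing. *Apoc1* and *Apoh*, with as few as 2 and 5 counts in a library, are the uptake genes that depth limits most.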

Other observations

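For each uptake gene, tested genes among the 3 with the highest Pearson r of log2 CPM over the 16 libraries are given as a description, since they were chosen for it. *Vldlr* was followed most closely by *Ttll7* (r = 0.967), *Cdc73* (0.939) and *Mob1b* (0.939), *Cd36* by *Brcc3* (0.964), *Crbn* (0.956) and *Vps35* (0.949), and *Gpihbp1* by *Cmss1* (0.927), *Zfand2b* (0.919) and *Cyhr1* (0.919). *Lrp1* was most like *Lamb1* (0.944) and *Nid1* (0.916), which encode basement membrane proteins, and *Tgfbr3* (0.921), and all 3 values rest in part on the 3 high *Lrp1* libraries. *Apoe* was most like *Coro1b* (0.889), *Iah1* (0.882) and the cathepsin gene *Ctss* (0.879), which is 1 of the 12 macrophage markers. *Apoc1* was most like *Gsta3* (0.926), the Fc receptor gene *Fcgr1* (0.837), which is also in the macrophage list, and *Ywhab* (0.837). *Lpl* had the lowest values, with *Dkc1* (0.741), *Abhd18* (0.740) and *Asb13* (0.729), *Lmf1* had *Zfp523* (0.862) and *Ubb* (0.857), and *Apoh* had *Frk* (0.829), *Manea* (0.824) and *Slc25a15* (0.821).

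Of 21 genes of the apolipoprotein, lipase and fatty acid transport lists whose counts were too low to be tested, 13 were highest in replicate 5 labelled *Npr1*+/+. The share over all untested genes was not counted. Some of the 13 were near the floor, such as *Fabp2* with 1 count there and *Apom* with 3 beside 4 over the other 15 libraries. *Apoa2* had 143 counts there and 35 over the other 15 libraries, and *Slc27a2*, a fatty acid transport protein of liver, had 19 and 3. *Apoc2* had 0 counts in all 16 libraries.

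None of the 5 tested erythroid markers passed for the label, and all 5 had a log2 fold change above 0. Of 12 endothelial markers 11 were above 0, with summed levels of 364 to 828 CPM against 372 to 483 CPM, and of 9 tested adipocyte markers 7 were below 0. None of these passed.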
